A study of Triticum polonicum with 8 samples.

Results

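Transcript levels in roots of dwarf Polish wheat given cadmium and zinc together (N2_Cd_Zn) were set against roots given no added metal (N2), both at raised calcium and potassium nitrate. The pair was taken by its column names and makes up 2 of the 8 libraries of the series. Seedlings of N2_Cd_Zn received 80 µM CdCl2 and 500 µM added Zn on top of calcium nitrate at 8 mM and potassium nitrate at 10 mM, and those of N2 received the same nitrate salts without added metal. Both media had Zn at its basal dose of 5 µM and 26 mM nitrate computed from the salts, so Ca/K supply does not differ within the pair. The label of the combined treatment gives the Zn salt as ZnSO4, whereas the series text writes the chloride and the sulphate together. Chloride and sulphate brought in with the metals cannot be told apart from them. Roots were harvested at 4 weeks of age, after 1 week of treatment. The basal libraries used below for comparison, N0_Cd_Zn, N0_Cd, N0_Zn and N0, had calcium nitrate at 4 mM and potassium nitrate at 5 mM, with the same metal doses. The libraries N2_Cd and N2_Zn carried a single metal at raised Ca/K.

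Cadmium has no known function in wheat and binds thiol groups of proteins, whereas zinc is a cofactor of many enzymes and becomes toxic in excess. Both ions can enter root cells through shared divalent metal carriers, among them members of the ZIP family, and plants bind them with thiol peptides such as phytochelatins and store them in vacuoles. Calcium can compete with cadmium for uptake through cation channels. None of these genes could be picked out here, because the files give gene identifiers without names, and for the same reason the labelled tissue could not be checked against root marker genes.

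Each treatment has 1 column of counts, so N2_Cd_Zn against N2 has no replicate check, and the differences are described by size with no p-value. The labels speak of 3 biological replicates for a treatment, but the sources do not say how these became 1 column. N2_Cd_Zn held 20000875 counts and N2 held 24930243, and 29175 genes in N2_Cd_Zn and 29656 in N2 reached 5 CPM, where CPM is a gene's reads per 1000000 reads of its library, scaled by edgeR's trimmed mean of M values (TMM). A count of 0 allows up to 3 counts, or 0.150 CPM in N2_Cd_Zn and 0.120 CPM in N2 by library total. Over the 32942 genes compared below, the log2 CPM of N2_Cd_Zn correlated at Pearson r = 0.89 with N2_Zn, 0.84 with N2_Cd and 0.71 with N2, a description of single libraries across genes, which are not replicates. With the basal libraries N0_Cd, N0_Zn and N0, N2_Cd_Zn correlated at 0.85, 0.80 and 0.71. The basal library with both metals stood apart from the other libraries with metal: N0_Cd_Zn correlated at 0.82 with N0 and 0.79 with N2, but at 0.56 with N2_Cd_Zn. Whether that library was exchanged with another cannot be told from these data, and basal values are therefore given for N0_Cd and N0_Zn as well. In whole-root RNA, fewer cells of a type and less RNA per cell cannot be told apart.

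More genes were higher than lower in roots with both metals at a 2-fold limit, but the large differences lay mainly on the lower side. Of 32942 genes with at least 5 CPM in N2_Cd_Zn or N2, 3848 (11.7%) were 2-fold or more higher in N2_Cd_Zn and 3519 (10.7%) were lower. At 4-fold the order turned, with 836 genes higher and 1146 lower. At 8-fold, 191 (0.58%) were higher and 642 (1.95%) lower, and at 32-fold 19 were higher and 308 lower. The bulk of genes differed little: 11865 genes (36.0%) lay within 1.25-fold, the middle 50% of log2 ratios ran between -0.42 and 0.53, and the median was 0.05. The order at 2-fold depends on the processing, and with TMM 52.2% of the genes past 2-fold were higher. With plain CPM by library total the median of all genes shifted to -0.09, with 3263 genes higher and 4374 lower. On log2(FPKM + 1), where scale and gene set changed together (49828 genes with FPKM of at least 1 in 1 of the libraries), 3196 were higher and 4540 lower (41.3% higher). With a pseudocount of 0.1 in place of 1, the split was 5104 and 7558 (40.3% higher). With median-of-ratios size factors the median was 0.10, with 4109 higher and 3286 lower.

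**Figure D1:**
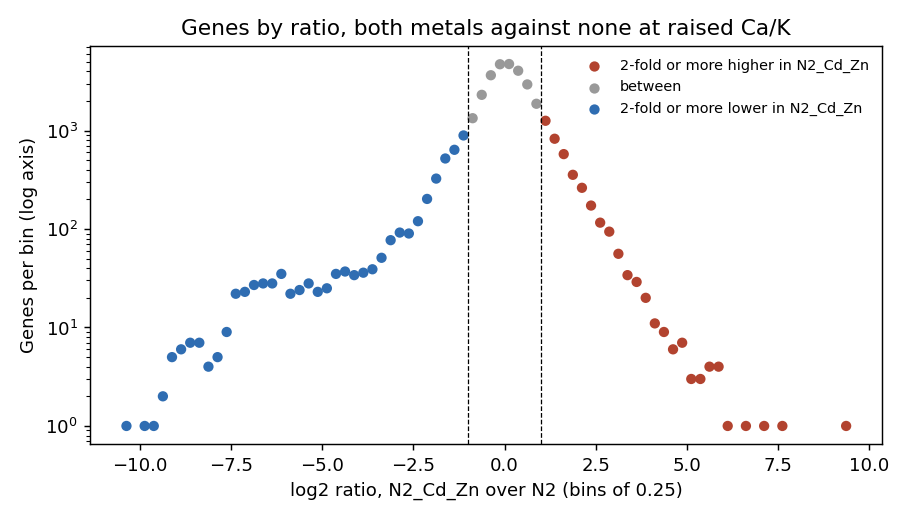
Points give the number of genes (log axis) in each bin of 0.25 of the log2 ratio of N2_Cd_Zn over N2, for the 32942 genes compared; dashed lines mark 2-fold. The lower side carries a long shoulder beyond 8-fold (642 genes), whereas the higher side has no such shoulder (191 genes).

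Well expressed genes were higher more often than they were lower. Among 3428 genes that averaged at least 50 CPM over the 2 libraries, 495 (14.4%) were 2-fold or more higher in N2_Cd_Zn and 188 (5.48%) were lower. Of the 71 genes that averaged at least 500 CPM, 20 were higher and 1 was lower. Among 22061 genes averaging under 20 CPM the shares were 11.7% higher and 13.0% lower, and a gene near the minimum of 5 CPM can enter only through the library in which it is high. In sum, the genes 2-fold higher held 116381 CPM more in N2_Cd_Zn than in N2, and the genes 2-fold lower held 62298 CPM less. TMM-scaled CPM do not add up to the same total in both libraries (factors of 1.048 for N2_Cd_Zn and 1.138 for N2). The balance of these sums therefore depends on the scaling. The 100 genes with the most reads took 9.61% of the counts of N2_Cd_Zn (95% Wilson interval 9.60% to 9.62%) and 8.32% of those of N2 (8.31% to 8.33%), intervals that cover counting error only. On the deposited per-length scale (FPKM), 62 of the 100 most abundant genes were the same in both libraries, as were 731 of the top 1000.

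The genes with the largest differences in CPM were followed through all 8 libraries. They were chosen by N2_Cd_Zn and N2, which favours N2_Cd and N2_Zn standing on the same side of N2 as N2_Cd_Zn. TRIAE_CS42_1AS_TGACv1_019239_AA0063780, a gene model of 546 bp on the short arm of chromosome 1A, had 2328 CPM in N2_Cd_Zn, 489.5 in N2_Cd, 1488 in N2_Zn and 951 in N2, and 526, 946, 1420 and 444 CPM in N0_Cd_Zn, N0_Cd, N0_Zn and N0. The combined library was thus the highest of the 8, and N2_Cd lay below the library without metal. The ratio of N2_Cd_Zn to N2 was 2.45-fold (95% counting interval 2.41 to 2.48), on 48706 counts against 26910.

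TRIAE_CS42_7AL_TGACv1_557592_AA1783720, of 1342 bp on the long arm of 7A, had 1501 CPM in N2_Cd_Zn, 740 in N2_Cd, 1128 in N2_Zn and 197 in N2. All 3 libraries with metal stood above N2, an order that the choice by N2 favours. The basal levels were 389, 789 and 611 CPM in N0_Cd_Zn, N0_Cd and N0_Zn, against 201 in N0, so each metal library was above its control at both supplies. N2_Cd_Zn exceeded N2 7.61-fold (7.39 to 7.83). The level lay below the product of the single-metal ratios, by a log2 difference of -1.49.

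TRIAE_CS42_U_TGACv1_642434_AA2117550, a model of 754 bp without an arm, followed zinc. It had 13 counts (0.621 CPM) in N2_Cd_Zn and 40 counts (1.86 CPM) in N2_Zn, against 12699 counts (586 CPM) in N2_Cd and 26338 counts (931 CPM) in N2. At basal supply it had 0.400 CPM in N0_Cd_Zn, 280 in N0_Cd, 0.688 in N0_Zn and 34.7 in N0. The 4 libraries with added Zn were all under 2 CPM and the 4 others all above 30 CPM. Among those 4 others, N0_Cd stood above N0, whereas N2_Cd stood below N2. N2_Cd_Zn was 1499-fold lower than N2 (876 to 2815).

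TRIAE_CS42_1DS_TGACv1_080166_AA0241970, of 631 bp, carries a code of the D subgenome, which bread wheat has and tetraploid wheat lacks. It had 132 CPM in N2_Cd_Zn, 254.5 in N2_Cd and 109 in N2_Zn, against 960 in N2, a 7.26-fold lower level with both metals (6.98 to 7.55). At basal supply the single metals were again low, with 120 CPM in N0_Cd and 122 in N0_Zn against 702 in N0, whereas N0_Cd_Zn held 1318 CPM. For this gene model the combined treatment thus lay below its control at raised Ca/K and above it at basal Ca/K. In a wheat without a D subgenome the reads on this model may come from other copies, which was not tested.

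**Figure D2:**
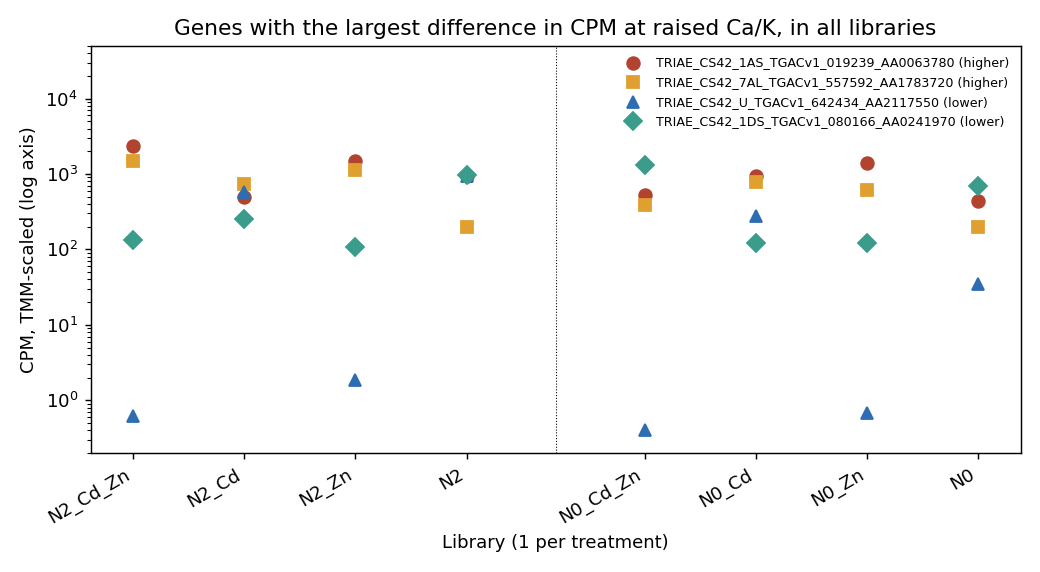
Level of 4 genes (CPM, log axis) in each of the 8 libraries, 1 point per library, raised Ca/K left of the dotted line and basal Ca/K right of it. The gene without an arm (triangles) is under 2 CPM in all 4 libraries with added Zn, and the 1DS gene (diamonds) has 132 CPM in N2_Cd_Zn but 1318 CPM in N0_Cd_Zn.

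The next 8 genes in each direction, taken by the same difference in CPM and given by arm because identifiers lack names, showed 3 kinds of profile among those higher. A 4AL gene of 670 bp had 2074 CPM in N2_Cd_Zn, 514 in N2_Cd and 1078 in N2_Zn, against 791.5 in N2. A 4BS gene of 787 bp had 1673, 459 and 780 CPM in the same metal libraries, against 625 in N2. Both resembled the 1AS gene in standing above N2 with the metals combined and below it with Cd alone.

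A 2AL gene of 1595 bp had the largest ratio of the 8, with 1367 CPM in N2_Cd_Zn, 788 in N2_Cd and 877 in N2_Zn, against 157 in N2 (8.70-fold, 8.43 to 8.985). A 6AL gene of 1645 bp had 1655, 1074 and 1386 CPM in those metal libraries, against 388.5 in N2. At raised Ca/K these genes were above N2 in all 3 libraries with metal, an order that the choice by N2 favours. At basal supply the 2AL gene had 227 CPM in N0_Cd_Zn, 1039 in N0_Cd and 1879 in N0_Zn, against 451 in N0, above its control with the single metals and below it with both. The 6AL gene was instead lower with metal, at 251, 337 and 255.5 CPM in N0_Cd_Zn, N0_Cd and N0_Zn, against 411 in N0.

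A 6BS gene of 1151 bp had 1060 CPM in N2_Cd_Zn and 1528 in N2_Zn, against 228 in N2_Cd and 139 in N2. A locus with a serial number only, of 1088 bp, had 1246 and 1604 CPM in the same Zn libraries, against 272 in N2_Cd and 236 in N2. These genes were high in both raised-supply libraries with Zn. The 3AL and 1BS genes that completed the 8 were 2.43- and 3.52-fold higher in N2_Cd_Zn than in N2, and in N0_Cd_Zn both had a log2 ratio of -2.13 to N0. The 3AL gene had 379 CPM in N0_Cd_Zn, 1323 in N0_Cd and 2797 in N0_Zn, against 1655 in N0, and the 1BS gene had 169, 1131 and 1775 CPM, against 737 in N0.

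Among the next 8 lower genes, 3 followed zinc as the gene without an arm did. A 6AL gene of 1761 bp had 1.24 CPM in N2_Cd_Zn and 1.67 in N2_Zn, against 619 in N2_Cd and 451 in N2. A 2AL gene of 3287 bp had 9.27 CPM in N2_Cd_Zn and 8.65 in N2_Zn, against 613.5 in N2_Cd and 531 in N2. A 2BL gene of 2677 bp had 2.34 CPM in N2_Cd_Zn and 4.51 in N2_Zn, against 245 in N2_Cd and 385 in N2. All 3 were also under 5 CPM in N0_Cd_Zn and N0_Zn and above 20 CPM in N0_Cd and N0. Without Zn they also differed with Cd at basal supply. The 6AL, 2AL and 2BL genes had 498, 316 and 158.5 CPM in N0_Cd, against 30.8, 39.8 and 23.2 in N0.

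Of the other 5 lower genes, 4 were lower than N2 with each metal at raised supply, which the choice by N2 favours. A 3AL gene of 895 bp had 1.15 CPM in N2_Cd_Zn, 0.785 in N2_Cd and 2.65 in N2_Zn, against 384 in N2. Its basal levels were 877 CPM in N0_Cd_Zn, 0.531 in N0_Cd and 0.642 in N0_Zn, against 134 in N0. A 1BL gene of 842 bp had 29.7, 39.8 and 11.3 CPM in the raised-supply metal libraries, against 565 in N2. A 1BS gene of 690 bp had 117, 263 and 91.1 CPM there, against 620 in N2. At basal supply it had 735, 139 and 62.0 CPM in N0_Cd_Zn, N0_Cd and N0_Zn, against 397.5 in N0, an order close to that of the 1DS gene. Whether the 1BS and 1DS models share reads was not tested.

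A locus of 685 bp with a serial number only had 61.8 CPM in N2_Cd_Zn, 12.1 in N2_Cd and 82.0 in N2_Zn, against 496 in N2. Its basal levels were 0.801 CPM in N0_Cd_Zn, 6.90 in N0_Cd and 106 in N0_Zn, against 59.5 in N0, so N0_Cd_Zn was the lowest of the 8 libraries for this locus. The 1BL gene had 140 CPM in N0_Cd_Zn, 1.63 in N0_Cd and 1.93 in N0_Zn, against 117 in N0. A 2BL gene of 2308 bp was the exception, with 67.3 CPM in N2_Cd_Zn and 231.5 in N2_Cd but 604 in N2_Zn, against 438.5 in N2. Its basal levels were 821 CPM in N0_Cd_Zn, 171 in N0_Cd and 25.5 in N0_Zn, against 265.5 in N0.

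A set of genes was close to silent with both metals. Without a single read in N2_Cd_Zn but at 5 CPM or more in N2 were 118 genes, 48 with an A code, 48 with a B code, 2 with a D code, 3 with the code U and 17 with a serial number only. The 32942 genes compared held 13469, 13874, 842, 1178 and 3579 of these classes. Their counts in N2 ran from 142 to 2472 with a median of 258. In N2_Cd their median was 1 count and in N2_Zn also 1 count, and 9 and 1 of the 118 reached 5 CPM there. The choice of genes by their level in N2 favours lower levels in these libraries. In the basal libraries 77 of the 118 reached 5 CPM in N0_Cd_Zn, 8 in N0_Cd, 1 in N0_Zn and 30 in N0. Of all 32942 genes compared, 26615, 27531, 25598 and 26859 did so in these libraries. The reverse case was rarer: 6 genes had no read in N2 and at least 5 CPM in N2_Cd_Zn, with 106 to 1123 counts there, and each of them had at least 1 read in every basal library.

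The 642 genes 8-fold or more lower had a median of 0.287 CPM in N2_Cd_Zn against 12.1 in N2. With cadmium alone, 129 of them had at least 5 CPM in N2_Cd and 513 did not, a division made after the values were seen. The basal libraries had no part in either choice. The 129 genes had medians of 13.0 CPM in N0_Cd_Zn, 9.27 in N0_Cd and 0.825 in N0_Zn, against 10.0 in N0, and 114 of them were 2-fold or more lower in N0_Zn but 43 in N0_Cd. The 513 genes had medians of 11.8 CPM in N0_Cd_Zn, 0.245 in N0_Cd and 0.138 in N0_Zn, against 3.90 in N0. Of these, 420 were lower in N0_Cd and 459 in N0_Zn, whereas 303 were higher and 36 lower in N0_Cd_Zn. Over all genes compared, 14.7% were 2-fold lower than N0 in N0_Cd_Zn, 7.59% in N0_Cd and 12.8% in N0_Zn, and 10.5%, 11% and 7.46% were higher.

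Neighbouring gene models were low together on 1 scaffold of 7AL, the only scaffold with 3 or more compared genes past 8-fold. These 3 models, of 880 to 1286 bp, had 0.143, 0.526 and 0 CPM in N2_Cd_Zn against 30.9, 264 and 32.3 CPM in N2. In N2_Cd the same 3 genes stood at 26.9, 196 and 27.1 CPM, and in N2_Zn all were under 1 CPM. At basal supply they had 32.2, 237.5 and 35.3 CPM in N0_Cd and 4.72, 41.7 and 1.91 CPM in N0, and each was under 1 CPM in N0_Cd_Zn and N0_Zn. A further model of that scaffold went the other way, with 9.70 CPM in N2_Cd_Zn against 4.84 in N2.

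The 191 genes 8-fold or more higher were expressed at a median of 14.5 CPM in N2_Cd_Zn against 1.10 in N2, with 4.76 in N2_Cd and 6.09 in N2_Zn. Levels above N2 in the single-metal libraries are favoured by the choice of genes low in N2. The gene models of the 191 were short, with a median of 1301 bp against 1912 bp for all genes compared. A median of 5.23 CPM in N0_Cd and 5.36 in N0_Zn against 2.47 in N0 was found at basal supply, and 1.42 in N0_Cd_Zn. Of the 191, 95 were 2-fold or more higher and 32 lower in N0_Cd, 82 higher and 15 lower in N0_Zn, and 37 higher and 78 lower in N0_Cd_Zn.

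Short genes were more often higher with both metals, whereas lower genes were most frequent in the shortest and the longest of 10 length classes. Of these classes, the shortest had 14.65% of genes lower, the next 8.41% and the longest 13.9%. When the genes compared were divided into 3 equal classes, the shortest (168 to 1548 bp) had 16.6% of genes 2-fold higher and 10.2% lower, the middle class (1549 to 2340 bp) 12.2% and 9.23%, and the longest (2341 to 15638 bp) 6.29% and 12.6%. The median log2 ratio was 0.24, 0.10 and -0.15 in these classes. The pattern was also present for single metals against N2, at 0.18, 0.07 and -0.10 for N2_Zn and 0.07, 0.04 and -0.01 for N2_Cd, comparisons that share the N2 library. Against the mean of all 8 libraries, short and long genes stood at 0.08 and -0.10 in N2_Cd_Zn and at -0.09 and 0.10 in N2, so both libraries of the pair departed from the mean, in opposite directions. At basal supply N0_Cd_Zn against N0 ran the other way, with -0.22, -0.16 and 0.01. The basal single metals showed little relation to length, with 0.02, 0.00 and 0.01 in N0_Cd and 0.01, 0.04 and 0.05 in N0_Zn. When each ratio was set against the median of genes of like length, 3331 genes were higher and 3666 lower, and 3142 and 3252 of these were among the 3848 and 3519. The order of the 2-fold counts thus turned with this adjustment, which was chosen after the data were seen. Whether RNA integrity or library preparation had a part in the relation to length was not tested.

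**Figure D3:**
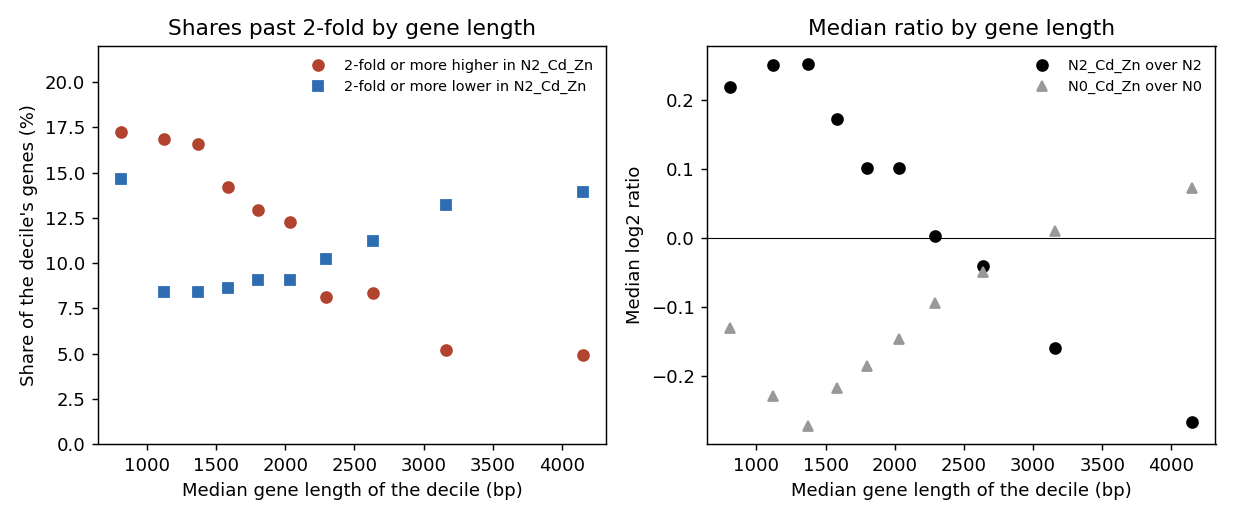
Left, share of genes 2-fold or more higher (circles) or lower (squares) in N2_Cd_Zn than in N2 in 10 classes of gene length, at each class's median length in bp; right, the median log2 ratio of N2_Cd_Zn over N2 (circles) and of N0_Cd_Zn over N0 (triangles) in the same classes. Going up in length, the share of higher genes falls to 4.93% in the longest class, against 17.3% in the shortest. The share of lower genes is 14.65% in the shortest class, 8.41% in the next and 13.9% in the longest.

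Genes of the A and B subgenomes had close shares in both directions. Among 13469 A genes 1621 were higher and 1507 (11.2%) lower, and among 13874 B genes 1661 were higher and 1437 (10.4%) lower, with median log2 ratios of 0.05 and 0.07. The 842 genes with a D code were more often past 2-fold in both directions, with 16.3% higher and 15.0% lower, at a median level of 7.73 CPM against 12.8 CPM for all genes compared. Loci with a serial number only were past 2-fold less often, with 7.80% of 3579 higher and 8.97% lower, at a median level of 9.60 CPM. Reads of near-identical A and B copies may be split between them, so values of single genes are uncertain.

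Across the 27 arms with at least 200 genes compared (3B undivided), the share of higher genes ran from 8.09% on 5AS to 15.9% on 6AL. The homoeologous group 2, whose arms 2AL, 2BL and 2BS stood next below 6AL, had 13.7% higher and 10.5% lower over A and B together, and group 6 had 13.1% and 10.5%. In these groups 2AS (11.4% higher), 6AS (11.7%) and 6BS (10.5%) stood at or below the 11.7% of all genes compared. Group 4 had 396 of 3610 higher and 10.5% lower. The share of lower genes ran from 8.73% on 6BL to 13.8% on 1AS. The median length of the genes compared was 2016 bp on 5AS and 1932 bp on 6AL, and 1831 to 2016 bp over the 27 arms. Along scaffolds, 4800 pairs of consecutive gene models could be compared. The model after a higher gene was itself higher in 20.8% of cases, against 11.3% over all pairs, and the model after a lower gene was lower in 21.1%, against 10.3%. Both members were higher in 108 pairs and lower in 101, and they went in opposite directions in 77. Overlapping or split gene models could share reads, and their part in these pairs was not tested.

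**Figure D4:**
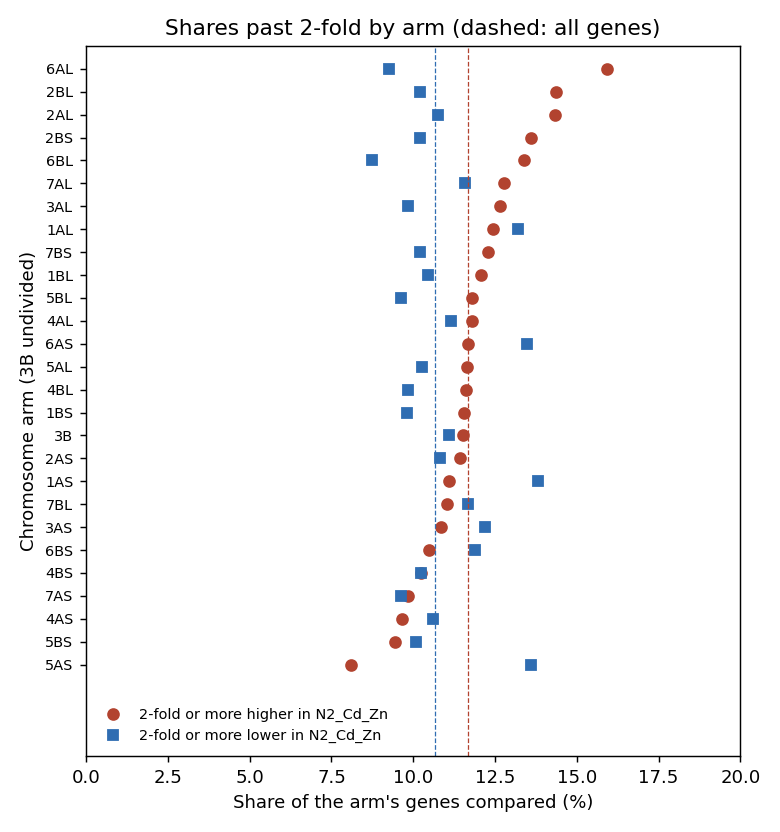
Share of the genes compared on each chromosome arm that were 2-fold or more higher (circles) or lower (squares) in N2_Cd_Zn than in N2, for arms with at least 200 genes compared; dashed lines give the shares over all genes. The share of higher genes runs from 8.09% on 5AS to 15.9% on 6AL.

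At basal supply these genes stood, by their medians, on the same side of the control with single metals and on the opposite side with both. The basal pairs share no library with N2_Cd_Zn or N2. The 3848 genes higher at raised Ca/K stood at a median of -0.99 in N0_Cd_Zn, against 0.56 in N0_Cd and 0.68 in N0_Zn, as log2 ratios to N0. Over all genes compared the medians were -0.12, 0.01 and 0.03. Counted at 2-fold, 1352 of the 3848 (35.1%) were higher and 315 (8.19%) lower in N0_Cd. In N0_Zn 1265 (32.9%) were higher and 178 (4.63%) lower, and in N0_Cd_Zn 244 (6.34%) were higher and 1904 (49.5%) lower. Of all genes compared, 11% were 2-fold higher in N0_Cd, 7.46% in N0_Zn and 10.5% in N0_Cd_Zn, and 7.59%, 12.8% and 14.7% were lower. The share lower in N0_Cd was thus no smaller among the 3848 than among all genes.

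The 3519 genes lower at raised Ca/K again stood on one side with the single metals and on the other with both. Their medians were -0.22 in N0_Cd, -1.65 in N0_Zn and 1.00 in N0_Cd_Zn. In N0_Zn 2385 of them (67.8%) were 2-fold lower and 92 (2.61%) higher, against 12.8% and 7.46% of all genes compared. In N0_Cd 974 (27.7%) were lower and 401 (11.4%) higher, against 7.59% and 11% of all genes. The share higher in N0_Cd was therefore no smaller than among all genes. In N0_Cd_Zn 1761 (50.04%) were instead higher and 278 (7.9%) lower. More of the lower genes were thus lower with basal Zn than with basal Cd, a difference that was not tested. By length class from short to long, the higher genes had medians of -0.991, -0.996 and -0.968 in N0_Cd_Zn, 0.51, 0.63 and 0.57 in N0_Cd, and 0.69, 0.67 and 0.69 in N0_Zn. The lower genes had 1.02, 0.96 and 1.02 in N0_Cd_Zn and -2.04, -1.71 and -1.37 in N0_Zn, but in N0_Cd -0.38, -0.35 and, close to 0, -0.06 for the longest. In the subgenomes, the higher genes had medians of -0.96, 0.57 and 0.70 for A and -1.02, 0.62 and 0.69 for B in N0_Cd_Zn, N0_Cd and N0_Zn. The lower genes had 1.08, -0.26 and -1.71 for A and 1.06, -0.26 and -1.79 for B.

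Not every gene stood on opposite sides in the combined treatments. Gene lists of each basal pair were taken as 2-fold or more from N0 with at least 5 CPM in 1 of its libraries. Of the 3848 higher genes, 1420 (36.9%) were among the 4669 genes lower in N0_Cd_Zn, where they made up 30.4%, and 11.7% of all genes compared were in that list. Another 150 (3.90%) were among the 4262 genes higher in N0_Cd_Zn, or 3.52% of those, against 9.54% of all genes compared. For the single metals, 1089 (28.3%) were among the 3950 genes higher in N0_Cd, or 27.6% of those, and 1066 (27.7%) among the 2657 higher in N0_Zn, or 40.1% of those. These lists held 9.28% and 6.33% of all genes compared.

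Of the 3519 lower genes, 1646 (46.8%) were among the 4262 genes higher in N0_Cd_Zn, making up 38.6% of them, and 179 (5.09%) were among the lower ones, or 3.83% of those. For the single metals, 655 (18.6%) were among the 2852 genes lower in N0_Cd, or 23.0% of those, and 1490 (42.3%) among the 3293 lower in N0_Zn, or 45.2% of those, where 6.09% and 8.55% of all genes compared were found. Taken from the basal side, the 4262 genes higher in N0_Cd_Zn had a median log2 ratio of -1.05 in N2_Cd_Zn against N2, and the 4669 lower genes a median of 0.72. Because N0_Cd_Zn stood near the libraries without metal, the values that rest on it cannot be told apart from a property of that 1 library. N2, which was used to choose the genes, correlated at 0.79 with N0_Cd_Zn, 0.78 with N2_Zn, 0.76 with N2_Cd and 0.74 with N0. In the 3848 higher genes N2 and N0_Cd_Zn had medians of 5.76 and 4.63 CPM, against 8.53 in N0. In the 3519 lower genes they had 12.4 and 13.5 CPM, against 6.37 in N0. A property of the N2 library can therefore not be told apart either.

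**Figure D5:**
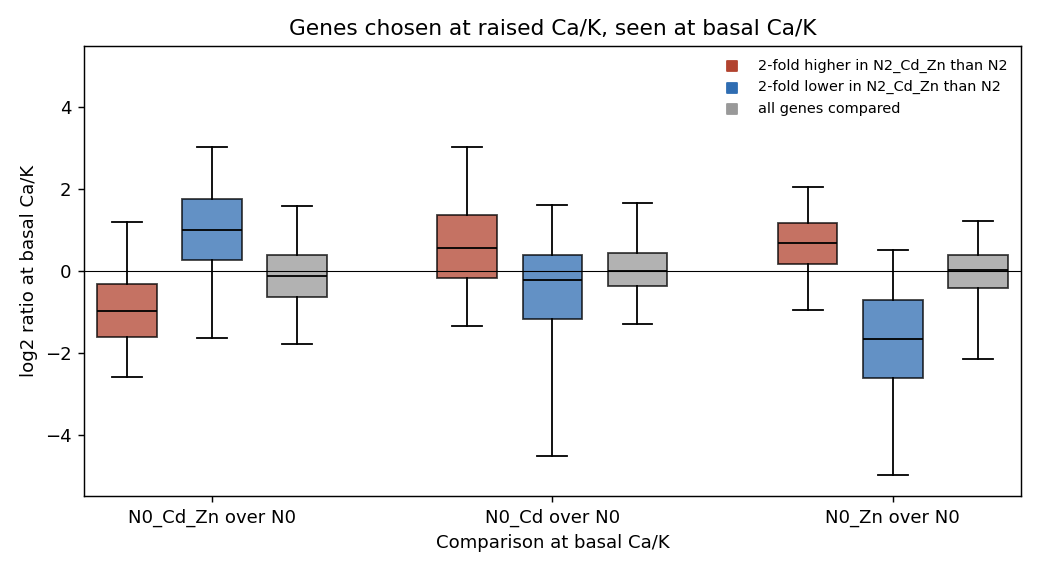
Log2 ratios at basal Ca/K of the 3848 genes higher and the 3519 genes lower in N2_Cd_Zn than in N2, and of all 32942 genes compared. Lines in boxes are medians, boxes span 25% to 75% and whiskers 5% to 95% of genes; the higher genes have medians of -0.99, 0.56 and 0.68 and the lower genes 1.00, -0.22 and -1.65 in N0_Cd_Zn, N0_Cd and N0_Zn against N0.

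At raised Ca/K the median levels with a single metal lay between those of the pair, an order that the choice of genes favours. The higher genes had a median of 17.8 CPM in N2_Cd_Zn, 12.5 in N2_Cd and 11.6 in N2_Zn, against 5.76 in N2. The lower genes had 3.49 CPM in N2_Cd_Zn, 7.43 in N2_Cd and 6.23 in N2_Zn, against 12.4 in N2. Both N2_Cd_Zn and N2 were used to choose the genes, which places their medians at the ends. The values are therefore given as levels only. Of the 29175 genes with at least 5 CPM in N2_Cd_Zn, 534 were 2-fold or more above all the other 3 raised-supply libraries. By the same rule 1370 of 29855 genes were above in N2_Cd, 479 of 29094 in N2_Zn and 1108 of 29656 in N2. Genes 2-fold below the other 3, where these all had at least 5 CPM, numbered 848 in N2_Cd_Zn, 387 in N2_Cd, 150 in N2_Zn and 777 in N2.

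The combined level was also set against the product of the single-metal ratios, which is the level that Cd and Zn would give if each multiplied the N2 level as it did alone. The median log2 difference was -0.07 over the 32942 genes, and 3992 genes (12.1%) were 2-fold or more above the product and 4677 (14.2%) below it. With plain CPM 6117 genes were above and 3142 below, so the balance is not stable to scaling. At basal supply the same quantity, which includes N0_Cd_Zn, had 6561 genes above and 8391 below. The difference carries the counting and library error of 4 single libraries, and how much of it is biological was not tested.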

How the data were processed

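Root RNA of 8 treatments was isolated using Trizol and sequenced from Illumina TruSeq libraries, per the labels' protocols, while the series text names a long-read method. Tools in the submitters' processing notes are TopHat2 2.0.12 and Bowtie2 2.0.6; counting tool, strand setting, build and annotation were not found in the sources. The authors deposited counts of reads per gene and FPKM (counts per length and library total), 1 column of each per treatment. The 16 columns were matched by name, with 0 left out. Counts divided by deposited FPKM gave whole-number gene lengths, to a relative deviation of 5.11e-15 at most. Counts were scaled with edgeR 4.0.16 in R 4.3.3 (TMM from 64580 genes kept by filterByExpr, minimum count 10). Log2 ratios used a prior count of 2, over genes reaching 5 CPM in N2_Cd_Zn or N2. Intervals of ratios are exact 95% intervals from the binomial split of 2 counts, for counting error only. The calculation was checked on simulated data. Named are the 2 genes in each direction with the largest CPM difference among those 2-fold apart, and the next 8 are given by arm. Gene lists by product and cell type markers needed names and were not analysed here. Members, lists and rules were chosen with earlier results of these data known. Alternatives were size factors (DESeq2 1.42.0), plain CPM, FPKM on a log2 scale, other filters and prior counts, A and B codes only and, chosen after seeing the data, TMM from all genes, TMM of the 2 libraries alone and centring by gene length in 50 classes.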

Additional observations from a re-analysis of the deposited data

Results flagged for a closer look

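The genes that were 2-fold or more higher in N2_Cd_Zn than in N2 had a median log2 ratio of -0.99 in N0_Cd_Zn against N0, where N0_Cd and N0_Zn had 0.56 and 0.68. Those lower had a median of 1.00 in N0_Cd_Zn, where N0_Cd and N0_Zn had -0.22 and -1.65. The gene model TRIAE_CS42_1DS_TGACv1_080166_AA0241970, whose reads may come from other copies, had a log2 ratio of -2.86 in N2_Cd_Zn against N2 and 0.91 in N0_Cd_Zn against N0. These values were marked because the 2 combined-metal libraries lay on opposite sides of their controls. With 1 library per treatment the difference was not tested. A property of the N0_Cd_Zn library or of the N2 library, an exchanged sample included, cannot be told apart from the Ca/K supply.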

How the results depend on the processing

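No paired analysis was possible because each treatment has 1 library, and leaving out a library leaves no pair. Among 143 values recomputed under 13 alternatives, 74 were within 1.5 times the count or within the 95% binomial interval of the median over genes, 64 moved further and 5 turned in sign. No median of the higher or lower genes in a basal pair turned in sign under these alternatives. No ratio of the 4 named genes did either, but the filters and the A and B setting leave such a ratio unchanged by construction. The 4 genes were picked for a large difference, so their unchanged sign is no check. Filters change which genes enter, and for the other alternatives the cause was not tested. Depth limits what a gene without a read can show, since 0 counts allow up to 3.

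Filters moved the counts most, but they also changed the number of genes compared. With a minimum of 1 CPM, 20 CPM or no filter, 54197, 12910 and 84237 genes were compared, against 32942. Of the genes under these filters, 6587, 1767 and 10393 were higher and 7816, 1092 and 13376 lower. With log2(FPKM + 0.1), 7558 of 49828 were lower. The product counts rest on the same numbers of genes, with 34233 for plain CPM and 49828 on both FPKM scales. Genes above the product of the single-metal ratios numbered 9768, 1094 and 16922 under these filters, and 6117 with plain CPM, 7168 with log2(FPKM + 1) and 11181 with log2(FPKM + 0.1). Those below it numbered 8680, 1800 and 15120 under the filters.

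The median of all genes was 0.101 with size factors, 0.131 with TMM from all genes, 0.116 at 20 CPM and 0.0 when centred by length. It turned negative with plain CPM (-0.085), log2(FPKM + 1) (-0.084), log2(FPKM + 0.1) (-0.104), a minimum of 1 CPM (-0.002) and no filter (-0.055).

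The higher genes in N0_Cd_Zn had medians of -0.954 with size factors, -0.884 with plain CPM, -0.555 with log2(FPKM + 1), -0.785 with log2(FPKM + 0.1), -0.901 at 1 CPM, -0.584 without filter, -0.909 with a prior count of 10, -0.951 with TMM from all genes and -0.851 centred by length. In N0_Cd they had 0.628 with plain CPM, 0.436 and 0.615 with log2(FPKM + 1) and log2(FPKM + 0.1), 0.483 at 20 CPM and 0.452 without filter. In N0_Zn they had 0.563 with plain CPM, 0.417 and 0.484 on the FPKM scales, 0.606 at 1 CPM, 0.728 at 20 CPM, 0.444 without filter and 0.649 with a prior count of 10.

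The lower genes in N0_Cd_Zn had medians of 1.058 with size factors, 1.068 with plain CPM, 0.783 and 0.915 on the FPKM scales, 0.833 at 1 CPM, 1.078 at 20 CPM, 0.610 without filter, 1.070 with A and B codes only, 1.055 with TMM from all genes and 1.096 centred by length. In N0_Cd they had -0.147 with plain CPM, -0.297 with log2(FPKM + 0.1), -0.402 at 1 CPM and -0.368 without filter. In N0_Zn they had -0.865 and -1.368 on the FPKM scales, -1.430 at 1 CPM, -1.992 at 20 CPM, -0.998 without filter, -1.719 and -1.454 with prior counts of 0.5 and 10, -1.755 with A and B codes only and -1.736 with TMM from all genes.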

Other observations

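Few genes set N2_Cd_Zn apart from every other library of the series. Of the 29175 genes with at least 5 CPM in N2_Cd_Zn, 147 were 2-fold or more above all the other 7 libraries. Another 13 genes were 2-fold or more below all of those libraries, where these all had at least 5 CPM. The counts above and below thus rest on unlike sets of genes. The same counts were 690 and 123 in N2_Cd, 335 and 29 in N2_Zn, and 239 and 71 in N2. At basal supply N0_Cd_Zn had 1041 genes above and 647 below, N0_Cd 306 and 16, N0_Zn 591 and 859, and N0 168 and 44.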
